A study of Mus musculus with 12 samples.

Results

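LSKs, the lineage-negative, Sca-1+ c-Kit+ fraction of bone marrow that holds the hematopoietic stem and progenitor cells, were profiled by RNA-seq in Tespa1+/+ and Tespa1-/- mice. The effect of genotype that the untreated and the 5-FU treated LSKs have in common is described here. Tespa1-/- mice carried the germline allele B6.129S-Tespa1 tm1Smoc, backcrossed to C57BL/6 for more than 6 generations, and the wild-type controls were littermates. The mice were males aged 8 to 10 weeks. LSKs came either from untreated mice or from mice at day 9 after 1 injection of 5-FU (150 mg/kg), an antimetabolite that kills cycling blood cells and forces the stem cell compartment to regenerate marrow. This gave 4 groups of 3 libraries, 6 libraries of each genotype, and no library served in both treatments. Whether a library came from a single mouse or from pooled mice is not given in the sources used here, so the p-values measure the spread between these libraries only.

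A gene entered the shared effect by an additive model of genotype and treatment over all 12 libraries. It had to differ between the genotypes (edgeR's quasi-likelihood test, Benjamini-Hochberg adjusted p below 0.05, fold change above 1.5), to have the same sign of the genotype effect in both treatments, and to have an adjusted interaction p of at least 0.05, the interaction being the difference of the genotype effect between the treatments. Of 18696 genes tested, 284 (1.52%) were shared and higher in Tespa1-/- LSKs and 266 (1.42%) were shared and lower, 550 (2.94%) in all. The additive test alone called 365 genes higher (1.95%) and 357 lower (1.91%). Of these 722 genes (3.86%), 172 were set aside, 142 of them with the same sign in both treatments and an adjusted interaction p below 0.05 and 30 with opposite signs. The interaction p was below 0.05 in 5.01% of all genes tested. An interaction p above the threshold does not show that the effect had the same size in both treatments. At the edges of the rule, Sgo2a (0.59) and Bambi (-0.59) lay just inside the fold change threshold, and C430019N01Rik (adjusted p = 0.052) just inside and Btnl10 (adjusted p = 0.049) just outside the interaction threshold, by edgeR's quasi-likelihood test. Each fold change below is Tespa1-/- relative to Tespa1+/+ on the log2 scale with its standard error, and expression is in CPM, counts scaled to the library total with TMM factors. A named gene is said to lose its call in an alternative fit where its adjusted p is at least 0.05, whatever its fold change.

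Between 22118154 and 28275079 counts were assigned per library (median 23401715), and a detection limit of 3 counts equalled 0.107 to 0.136 CPM (counting error only). The 3 untreated Tespa1-/- libraries had counts on more genes, 27219 to 29523, than the other 9 libraries, with 21141 to 24745, and 5518 to 7030 of these genes had 1 to 3 counts, against 2470 to 4309 elsewhere. The noncoding gene Gm26917, named after its values were seen, took the largest share of counts in every library and was higher in Tespa1-/- in both treatments (additive log2 fold change 0.35 ± 0.03, adjusted p = 3.1e-06). The genes Kit and Ly6a (Sca-1), whose products define the gate, were detected in every library. The part of these differences in the results below was not tested. In bulk RNA, fewer cells of a type and less RNA per cell cannot be told apart.

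Stem and progenitor cells in this gate stand before lineage choice. GATA1 and KLF1 are transcription factors that turn on the erythroid programme, GATA1 also the megakaryocyte, mast cell and eosinophil programmes, and their targets include red cell membrane proteins. Immediate-early genes such as Egr1 and the Nr4a family are switched on within minutes of receptor signalling through ERK and calcium, and Dusp and Spry proteins feed back on ERK. MECOM and HLF are transcription factors of the stem cell itself, and TESPA1 was described in thymocytes as a partner of the IP3 receptor in antigen receptor signalling.

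Tespa1 (ENSMUSG00000034833; GRCm38 chromosome 10, 130322870 to 130364111) was read first as a check of the labels. Its expression was 49.8, 43.0 and 46.6 CPM in untreated Tespa1+/+ libraries and 34.5, 34.9 and 34.8 CPM in untreated Tespa1-/- libraries. After 5-FU it was 47.2, 55.0 and 57.5 CPM in Tespa1+/+ and 20.8, 19.8 and 17.3 CPM in Tespa1-/-. The genotypes did not overlap in either treatment, with Tespa1-/- lower, and reads remained on the gene in all of them. The additive log2 fold change was -0.94 ± 0.16 (adjusted p = 0.0021), and the effect was larger after 5-FU (interaction test, adjusted p = 0.00104), so that Tespa1 itself is called but not among the shared genes. Permuting the genotype labels within each treatment gave p = 0.005 (two-sided exact permutation test over 400 assignments), the smallest value that this design can give.

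Of 18 erythroid genes tested, 6 were shared and higher against 1.52% of all genes (Klf1, Aqp1, Epor, Gata1, Ermap and Car1), 0 were lower, and 7 further genes, among them the globins Hba-a1 and Hbb-bs, were called higher with an adjusted interaction p below 0.05. Over the list, the genotype effect had a median of 0.95 on the log2 scale in untreated LSKs and 2.63 after 5-FU, against 0.01 and -0.02 over all genes tested.

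The start regions of the shared erythroid genes are shown because GATA1 is known to act on erythroid promoters. RefSeq promoters (GRCm38.p6, 250 bases before to 50 after the start) were matched for 5 of the 6 genes, and 3 of these held a GATA box, either letter of the pair A or T followed by GATAA, read on both strands. They are printed on the gene's strand with the GATA box in capitals: Klf1 (chr8:84901732-84902031, plus strand), whose box begins 80 bases before the start, Ermap (chr4:119189946-119190245, minus strand), 67 bases before it, and Epor (chr9:21963527-21963826, minus strand), 54 bases before it.
Klf1: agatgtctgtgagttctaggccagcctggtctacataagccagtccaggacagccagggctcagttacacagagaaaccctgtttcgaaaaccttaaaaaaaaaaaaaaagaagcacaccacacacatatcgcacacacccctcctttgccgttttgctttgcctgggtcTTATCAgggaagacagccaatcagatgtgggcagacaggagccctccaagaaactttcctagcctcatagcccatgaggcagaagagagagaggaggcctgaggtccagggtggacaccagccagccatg
Ermap: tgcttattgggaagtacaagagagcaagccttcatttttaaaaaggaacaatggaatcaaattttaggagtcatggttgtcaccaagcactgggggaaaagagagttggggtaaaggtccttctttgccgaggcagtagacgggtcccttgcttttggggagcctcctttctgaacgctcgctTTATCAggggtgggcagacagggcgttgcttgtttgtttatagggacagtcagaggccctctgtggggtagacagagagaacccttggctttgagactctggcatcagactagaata
Epor: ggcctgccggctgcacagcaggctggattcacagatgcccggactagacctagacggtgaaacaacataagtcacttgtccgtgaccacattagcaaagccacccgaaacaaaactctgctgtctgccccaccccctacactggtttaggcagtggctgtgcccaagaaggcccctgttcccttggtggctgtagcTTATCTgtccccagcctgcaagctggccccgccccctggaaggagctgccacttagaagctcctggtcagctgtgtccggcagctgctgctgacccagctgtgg
In all 3 the box is read on the opposite strand to the gene. Promoters were matched for 11143 of the genes tested, and 10.7% of them held a GATA box. Among the shared genes that were higher, the share was 26.0% (50 of 192 promoters), and among those that were lower 13.3% (21 of 158). The KLF box (CC, any base, C, any base, CCC; both strands) was in 59.4% of the promoters of the higher genes, 67.1% of the lower and 67.2% of all. These were 2 of 9 motifs searched. Of the others, EGR (5.21% against 10.2% of all), ETS (4.69% against 8.01%) and cAMP response (1.04% against 3.12%) sites were rarer in the higher genes. AP-1 sites (7.29% against 5.06%), interferon response elements (5.21% against 3.26%) and CArG boxes (1.56% against 1.27%) were more frequent. The E-box was in 9.90% against 9.91%. These shares are descriptions without a test, and a match does not show binding.

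Klf1 (chromosome 8, 84901928 to 84905291), the erythroid Krüppel-like factor, was at 3.00, 4.49 and 2.81 CPM in untreated Tespa1+/+ libraries and 9.13, 5.28 and 8.55 CPM in untreated Tespa1-/- libraries. After 5-FU it was at 11.1, 13.1 and 6.32 CPM in Tespa1+/+ and 32.5, 37.7 and 32.5 CPM in Tespa1-/-. The genotypes did not overlap in either treatment, and the 5-FU treated Tespa1-/- libraries stood highest of all 12. The additive log2 fold change of Klf1 was 1.47 ± 0.21 (adjusted p = 0.000524), with 1.16 in untreated and 1.75 in treated LSKs.

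Ermap (chromosome 4, 119175457 to 119190011), an erythroblast membrane protein, was at 1.78, 5.73 and 0.951 CPM in untreated Tespa1+/+ and 13.7, 13.1 and 13.6 CPM in untreated Tespa1-/- libraries. After 5-FU it was at 13.7, 11.7 and 12.4 CPM in Tespa1+/+ and 69.3, 64.2 and 70.3 CPM in Tespa1-/- libraries. The ranges of the untreated Tespa1-/- and the 5-FU treated Tespa1+/+ libraries overlapped, while the genotypes did not overlap within either treatment. The genotype effect was 2.26 in untreated and 2.43 in treated LSKs (additive 2.35 ± 0.27, adjusted p = 9.3e-05).

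Aqp1 (chromosome 6, 55336432 to 55348555), the water channel of red cells, was at 9.79 ± 1.27 CPM (SD, n = 3) in untreated Tespa1+/+ and 25.6 ± 5.25 CPM in untreated Tespa1-/- LSKs, then at 30.3 ± 3.65 and 91.8 ± 12.1 CPM after 5-FU. Its additive log2 fold change was 1.5 ± 0.12 (adjusted p = 2.99e-06). Gata1 (chromosome X, 7959260 to 7978071), which like Epor was singled out after its values were seen, was at 5.78 ± 2.03 and 10.1 ± 0.592 CPM in untreated Tespa1+/+ and Tespa1-/- LSKs and at 19.1 ± 5.28 and 37.4 ± 4.34 CPM after 5-FU. It gave an additive 0.90 ± 0.16 (adjusted p = 0.00317). Car1, a carbonic anhydrase of early erythroid cells, gave 1.09 ± 0.14 (adjusted p = 0.000225), and Epor, the erythropoietin receptor, 1.53 ± 0.38 (adjusted p = 0.0206).

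Rhd, a carrier of the Rh antigens that is not on the list, had 9, 0 and 0 counts in untreated Tespa1+/+ libraries and 30, 46 and 28 in untreated Tespa1-/- libraries, and 17 to 69 against 313 to 440 counts after 5-FU (additive log2 fold change 3.25 ± 0.45, adjusted p = 0.000428). Kel, Rhag and Epb42 were chosen after their values were seen. Kel, the Kell antigen, was at 1.34 ± 0.884 against 5.10 ± 0.623 CPM in untreated and 5.45 ± 0.308 against 21.4 ± 3.33 CPM (SD, n = 3) in treated LSKs, an additive 1.95 ± 0.23 (adjusted p = 0.000124). Rhag, the Rh-associated glycoprotein, gave 2.67 ± 0.34 (adjusted p = 0.000192) and Epb42, protein 4.2 of the red cell membrane, 2.82 ± 0.48 (adjusted p = 0.00191). Gm37527 (3.26 ± 0.44) lies inside Kel on the same strand, so that reads may be split between the 2 genes, and it is not separate evidence.

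**Figure D1:**
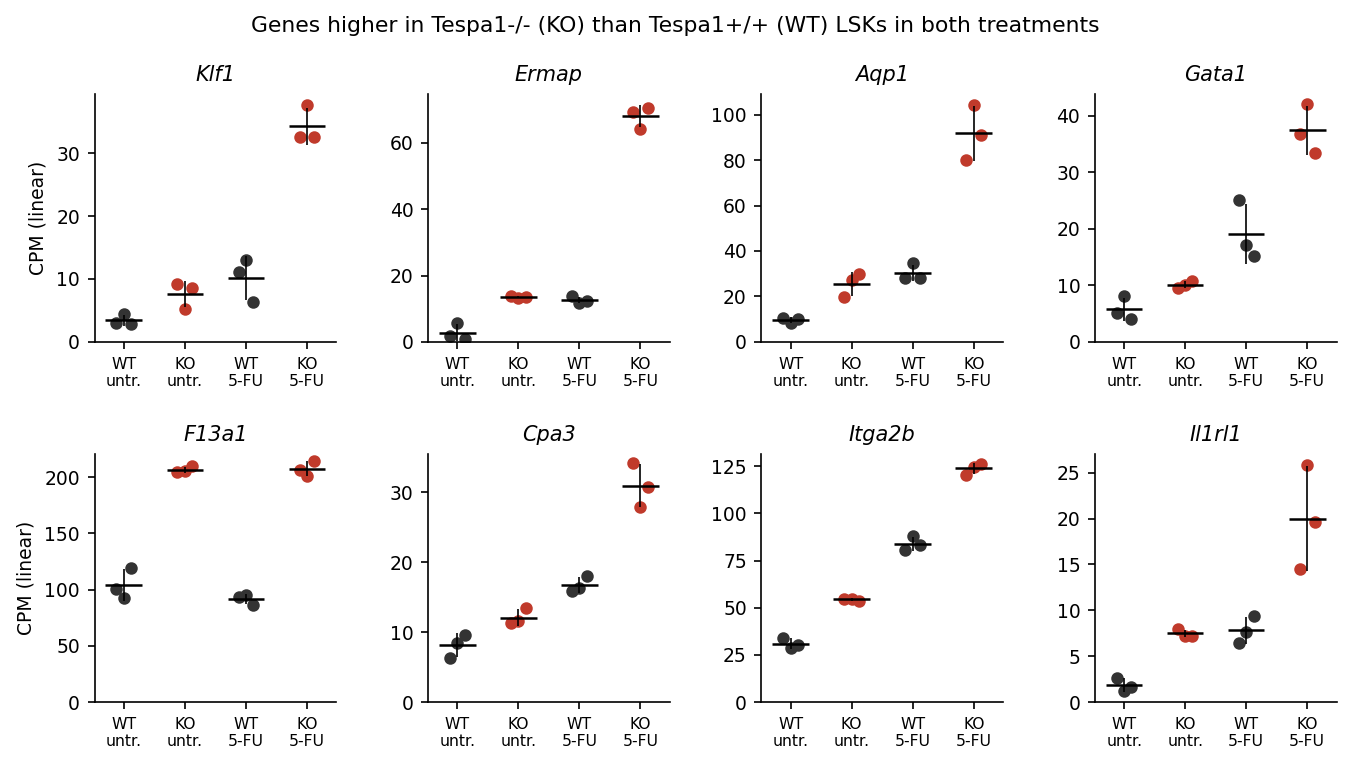
CPM (linear axis) of 8 genes higher in Tespa1-/- LSKs, by group: WT is Tespa1+/+, KO is Tespa1-/-, untr. is untreated. Points are the 3 libraries of a group, horizontal lines the mean and vertical lines 1 SD. In all 8 panels the KO points lie above the WT points of the same treatment.

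The summed CPM of 7 erythroid markers moved in the same direction, from 17.7 to 25.2 CPM in untreated Tespa1+/+ to 38.4 to 46.2 CPM in untreated Tespa1-/- libraries, and from 33.1 to 47.7 CPM to 270 to 289 CPM after 5-FU, with 0 of the 7 markers absent from any group. Their part in the erythroid genes above was not tested. Of the 7 markers, 5 were called higher (1.95% of all genes) and 3 were shared (1.52%).

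The largest rises by fold were granulocyte genes, Ear6 and Epx, on few counts in the Tespa1+/+ libraries. Ear6 (chromosome 14, 51853699 to 51854643), an eosinophil ribonuclease, had 0 counts in all 6 Tespa1+/+ libraries, 3, 4 and 4 counts in untreated Tespa1-/- libraries and 687, 768 and 577 counts in treated ones. It was at least 1.29-fold higher in untreated and at least 227-fold higher in treated Tespa1-/- LSKs, set against 3 counts in each Tespa1+/+ library (additive adjusted p = 8.34e-07). It passed the filter on low counts only through the treated Tespa1-/- libraries, so this p does not show a rise in untreated LSKs. Camp, Ltf and Olr1 below also passed that filter only through those libraries. Ear6 belongs to a family of near-identical genes, between which reads may be split. Epx, eosinophil peroxidase, had 0 counts in the 3 untreated Tespa1+/+ libraries against 12, 13 and 16 in untreated Tespa1-/- libraries, at least 4.79-fold higher, and 4, 1 and 0 against 5094, 5472 and 4547 counts after 5-FU (adjusted p = 3.05e-12). The direction was the same in both treatments, but the sizes were far apart, and the interaction test did not pass (adjusted p = 0.957) with counts this low on the Tespa1+/+ side.

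Of 20 neutrophil genes, 13 were called higher (1.95% of all genes), and 4 of these were shared (1.52% of all genes): Camp, Mmp8, Ngp and Ltf. With genes at 0 in a genotype set to the detection limit, the median log2 fold change of the list was 0.04 in untreated and 6.43 in treated LSKs. The additive median, 4.90, was 3.43 with DESeq2 and 0.15 when all 12 libraries had to hold 10 counts or more. Some members, such as Cd177, at 0 in the other groups, entered the test only through the treated Tespa1-/- libraries. Mmp8, neutrophil collagenase, had 0, 4 and 11 counts in untreated Tespa1+/+ against 26, 33 and 49 in untreated Tespa1-/- libraries, and 6 to 27 against 241 to 340 after 5-FU (additive 3.45 ± 0.51, adjusted p = 0.00069). Camp, the cathelicidin, had 0, 3 and 13 counts in untreated Tespa1-/- libraries, so that its untreated groups overlapped, as did those of Ltf, lactoferrin, and Ngp, a granule protein. Padi4, which citrullinates histones in neutrophils, was the 1 gene of the list that was shared and lower, from 43.7 ± 7.64 to 20.6 ± 1.15 CPM and from 46.6 ± 7.45 to 29.2 ± 0.497 CPM (SD, n = 3; additive -0.88 ± 0.11, adjusted p = 0.000209).

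Among 11 primary-granule genes 7 were called higher (1.95% of all genes) and 3 were shared (1.52%), namely Prtn3, Gfi1 and Cebpe. Prtn3, proteinase 3, was at 104 ± 10.8 against 135 ± 22.6 CPM in untreated and 145 ± 9.00 against 294 ± 64.7 CPM (SD, n = 3) in treated LSKs (additive 0.70 ± 0.14, adjusted p = 0.00481). Plppr3, on the opposite strand, overlaps Prtn3, and whether the counting used strand is not given in the sources used here. Gfi1 and Cebpe are transcription factors of granulocyte maturation. Gfi1 (0.84 ± 0.24, adjusted p = 0.0423) lost its call when any 1 of 10 libraries was omitted, that is in all such fits but those without untreated Tespa1+/+ replicate 3 or untreated Tespa1-/- replicate 1, with adjusted p up to 0.0911. Cebpe (2.96 ± 0.76, adjusted p = 0.0236) lost it without 5-FU treated Tespa1-/- replicate 1 or 3 or Tespa1+/+ replicate 2 or 3, with adjusted p up to 0.0652. Fcgr3, a receptor for IgG that rises as myeloid progenitors form, was higher in both treatments (1.35 ± 0.22, adjusted p = 0.00161).

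The 10 neutrophil markers summed to 0.770 to 1.60 CPM in untreated Tespa1+/+, 4.70 to 5.85 CPM in untreated Tespa1-/-, 3.66 to 8.42 CPM in treated Tespa1+/+ and 1058 to 1061 CPM in treated Tespa1-/- libraries. Camp, Ltf and Cd177 were at 0 in untreated Tespa1+/+ libraries, Cd177 and Retnlg in untreated Tespa1-/-, and Cd177, Fcnb and Retnlg in treated Tespa1+/+ libraries. Their part in the granulocyte genes was not tested.

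**Figure D2:**
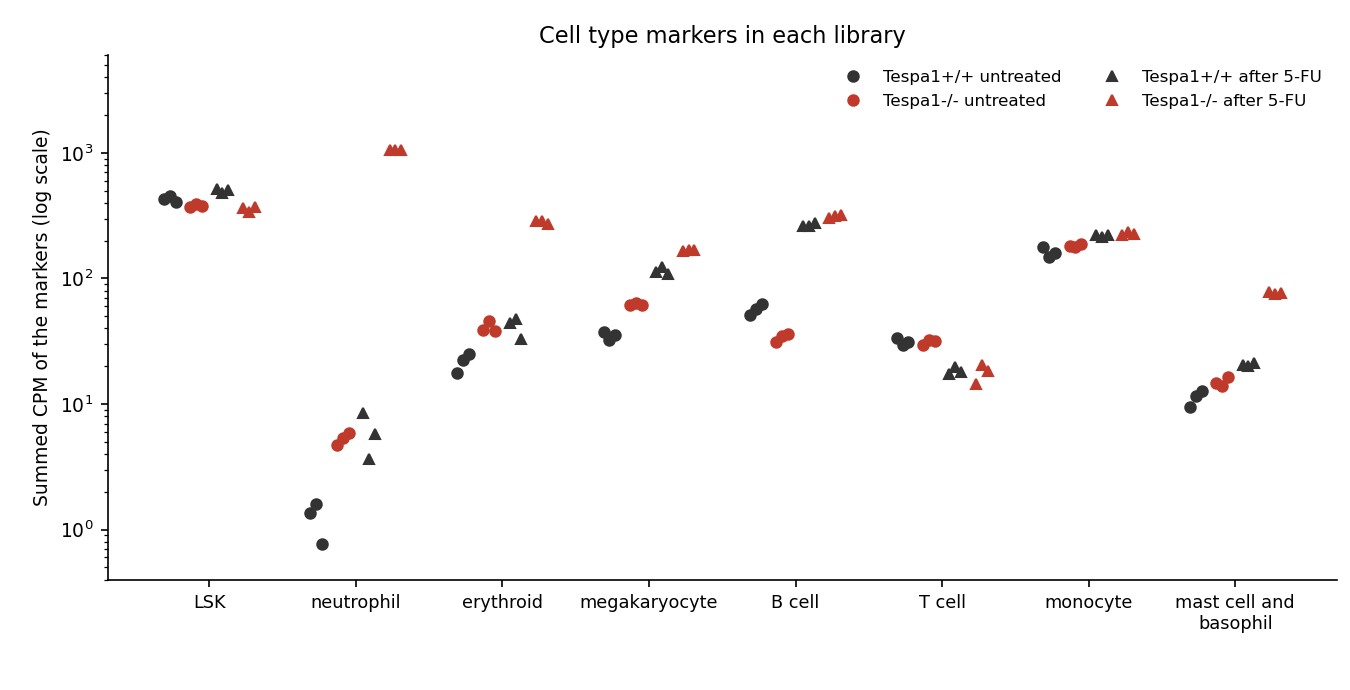
Summed CPM (log axis) of the cell type markers in each of the 12 libraries, with 3 points per group. Circles are untreated and triangles 5-FU treated, black Tespa1+/+ and red Tespa1-/-. The treated Tespa1-/- libraries stand apart at 1058 to 1061 CPM for neutrophil and 270 to 289 CPM for erythroid markers.

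Of 14 megakaryocyte genes tested, 3 were shared and higher (Itga2b, Pf4 and Itgb3), against 1.52% of all genes, and 1 was shared and lower, against 1.42%. The list median was 0.48 in untreated and 0.38 in treated LSKs (0.32 and 0.38 with genes at 0 set to the detection limit). Itga2b (chromosome 11, 102453297 to 102470122), the integrin chain CD41, was at 34.1, 28.4 and 30.4 CPM in untreated Tespa1+/+ and 54.9, 54.9 and 53.4 CPM in untreated Tespa1-/- libraries. After 5-FU it was at 80.6, 88 and 83.3 CPM in Tespa1+/+ and 121, 125 and 126 CPM in Tespa1-/-. The replicates lay close together and the genotypes did not overlap (additive 0.68 ± 0.06, adjusted p = 1.47e-05). Pf4, platelet factor 4, gave 0.64 ± 0.13 (adjusted p = 0.0051). Itgb3, the partner chain of Itga2b, gave 0.59 ± 0.15 (adjusted p = 0.0243), with 0.28 in untreated LSKs, where the groups overlapped, and 0.89 in treated ones. It lost its call without treated Tespa1-/- replicate 2 or 3 or treated Tespa1+/+ replicate 2 (adjusted p up to 0.0599). The 5 megakaryocyte markers summed to 32.4 to 37.2 against 61.1 to 63.5 CPM in untreated and 108 to 123 against 164 to 170 CPM in treated libraries, with Ppbp at 0 in untreated Tespa1+/+.

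F13a1 (chromosome 13, 36867178 to 37050244), the A chain of coagulation factor XIII, made by monocytes and megakaryocytes, was the shared gene of the monocyte and dendritic cell list with the smallest p. It was at 100, 92.1 and 119 CPM in untreated Tespa1+/+ and 204, 205 and 210 CPM in untreated Tespa1-/- libraries, and at 93.5, 95.1 and 86.2 CPM against 206, 201 and 214 CPM after 5-FU. Within each genotype the untreated and treated ranges overlapped, and the genotypes lay apart (additive 1.08 ± 0.06, adjusted p = 3.26e-07), at 0.99 in untreated and 1.18 in treated LSKs. Il1rl1, the IL-33 receptor, picked after its values were seen, was at 1.82 ± 0.753 against 7.47 ± 0.408 CPM in untreated and 7.80 ± 1.52 against 20 ± 5.69 CPM (SD, n = 3) in treated LSKs (1.67 ± 0.22, adjusted p = 0.00026).

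Mast cell and basophil genes were represented by Cpa3, carboxypeptidase A3, with 6.35, 8.49 and 9.65 CPM in untreated Tespa1+/+ and 11.3, 11.5 and 13.4 CPM in untreated Tespa1-/- libraries, and 15.9, 16.4 and 18 against 34.1, 27.9 and 30.8 CPM after 5-FU (0.73 ± 0.12, adjusted p = 0.00162). Of the 9 genes of this list tested, 5 were called higher (1.95% of all genes), 2 of them with an adjusted interaction p below 0.05, and 2 were shared (1.52%). The other shared gene, Ms4a2, a chain of the IgE receptor, gave 1.38 ± 0.34 (adjusted p = 0.0197). Ms4a2 lost its call without treated Tespa1-/- replicate 2 or 3, treated Tespa1+/+ replicate 1 or untreated Tespa1-/- replicate 2 (adjusted p up to 0.0576). The 4 mast cell and basophil markers summed to 9.45 to 12.7 against 13.9 to 16.3 CPM in untreated and 20.1 to 21.4 against 75 to 78.3 CPM in treated libraries, with Fcer1a at 0 in the untreated ones. Ly6c2, on monocyte progenitors, gave 0.66 ± 0.17 (adjusted p = 0.0267) and lost its call without treated Tespa1-/- replicate 1 or 2 or treated Tespa1+/+ replicate 1 (adjusted p up to 0.0707). Among 16 T-cell and NK-cell genes 3 were called higher (1.95% of all genes), 2 of them with an adjusted interaction p below 0.05, and 1 was shared (1.52%), Cd8b1. It had 0 counts in all 6 Tespa1+/+ libraries, 0, 3 and 1 in untreated Tespa1-/- and 31, 38 and 60 in treated Tespa1-/- libraries, at least 14.9-fold higher after 5-FU. Cd8b1 passed the filter on low counts only through the treated Tespa1-/- libraries. Of 17 B-cell genes 0 were called in edgeR's additive test (3.86% of all genes), but the treatments differed. The list median was -0.38 in untreated and 0.11 in treated LSKs, and 9 genes had an adjusted interaction p below 0.05 (5.01% of all genes). By edgeR's contrast in untreated LSKs, 9 were lower with an adjusted p below 0.05 (646 of all 18696 genes were). After 5-FU 1 was lower and 1 higher with such a p.

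Of 44 immediate-early genes tested, 37 were lower in both treatments by sign (5276 of the 18696 genes tested were), 33 had an adjusted p below 0.05 (5.84% of all genes did so in this direction) and 0 were higher with such a p. In this list 16 were called lower (1.91% of all genes), and 12 of these had an adjusted interaction p below 0.05. The 4 that passed every condition of the shared effect (1.42% of all genes) were Dusp6, Egr1, Nr4a2 and Sgk1. Over the list the median effect was -0.77 on the log2 scale in untreated and -0.30 in treated LSKs.

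Egr1 was at 699, 883 and 880 CPM in untreated Tespa1+/+ and 464, 468 and 482 CPM in untreated Tespa1-/- libraries. After 5-FU it was at 689, 705 and 693 CPM in Tespa1+/+ and 396, 422 and 408 CPM in Tespa1-/-. The genotypes lay apart in both treatments, by -0.80 and -0.77 (additive -0.78 ± 0.05, adjusted p = 7.92e-07). Nab2, a corepressor that binds EGR1 and is itself an EGR target, was lower by -0.84 in each treatment (additive -0.84 ± 0.16, adjusted p = 0.00357). Stat6 and Nemp1 overlap Nab2 on the opposite strand.

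Nr4a2 (chromosome 2, 57106830 to 57124003), an orphan nuclear receptor, fell from 70.8, 80.2 and 81.0 to 33.1, 36 and 30.5 CPM in untreated and from 47.3, 33.9 and 38.3 to 25, 23.6 and 29.3 CPM in treated libraries (additive -0.92 ± 0.12, adjusted p = 0.000282). Its relatives Nr4a1 (-1.0 ± 0.10) and Nr4a3 (-1.03 ± 0.20) were also lower in all Tespa1-/- libraries, but by more in untreated LSKs, and were not shared. Of the 6 genes that the study names for Tespa1-/- stem cells, Myct1, Egr1 and Nr4a2 were shared and all 6 had an adjusted p below 0.05. The study names them as c-Myc targets linked to stem cell maintenance and reports them lower after stress. Their direction in the treated libraries is therefore not independent evidence. Jmjd1c, a histone demethylase family member and the sixth of them, was lower by -0.49 ± 0.04 (adjusted p = 2.2e-06) and did not reach the fold change threshold.

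Dusp6, a phosphatase that removes the active marks of ERK, was at 140 ± 11.2 against 88.7 ± 6.76 CPM in untreated and 101 ± 11.5 against 66.2 ± 4.53 CPM (SD, n = 3) in treated LSKs (-0.63 ± 0.07, adjusted p = 5.65e-05). The genes Dusp4, Hes1, Fosl1, Spry4 and Cd86 were likewise chosen with their values in view. Dusp4, a nuclear phosphatase of the same family, was at 21.4, 15.3 and 15.7 against 7.24, 10.3 and 8.77 CPM in untreated and at 26.9, 25 and 23.2 against 9.25, 12.6 and 10.4 CPM in treated libraries (-1.11 ± 0.13, adjusted p = 0.000138). Hes1, a target of Notch signalling, was at 28.7, 31.5 and 27.1 against 11.6, 11.4 and 11.8 CPM in untreated and at 27.0, 31.1 and 29.8 against 17.1, 17.8 and 13 CPM in treated libraries (-1.10 ± 0.11, adjusted p = 3.63e-05). For both genes the Tespa1-/- libraries were the lower 3 in each treatment, without overlap. Cd86, a costimulatory ligand, gave -1.19 ± 0.13 (adjusted p = 6.3e-05) and Fosl1, an AP-1 subunit, -1.10 ± 0.21 (adjusted p = 0.00478).

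Spry4 (-1.03 ± 0.28, adjusted p = 0.0319) and Sgk1, a kinase induced by growth factors (-0.62 ± 0.18, adjusted p = 0.0445), passed the rule with less margin. Sgk1 was at 12.8 ± 1.92 CPM in treated Tespa1+/+ and 11.5 ± 1.89 CPM in treated Tespa1-/- LSKs (SD, n = 3), so that its treated groups overlapped, and it lost its call in 10 of 12 fits that left out 1 library, all but those without treated Tespa1-/- replicate 3 or treated Tespa1+/+ replicate 2 (adjusted p up to 0.111). Spry4 lost its call in 7 of the 12, those without treated Tespa1-/- replicate 2 or 3, treated Tespa1+/+ replicate 3, untreated Tespa1-/- replicate 1 or 2 or untreated Tespa1+/+ replicate 1 or 2 (adjusted p up to 0.081).

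**Figure D3:**
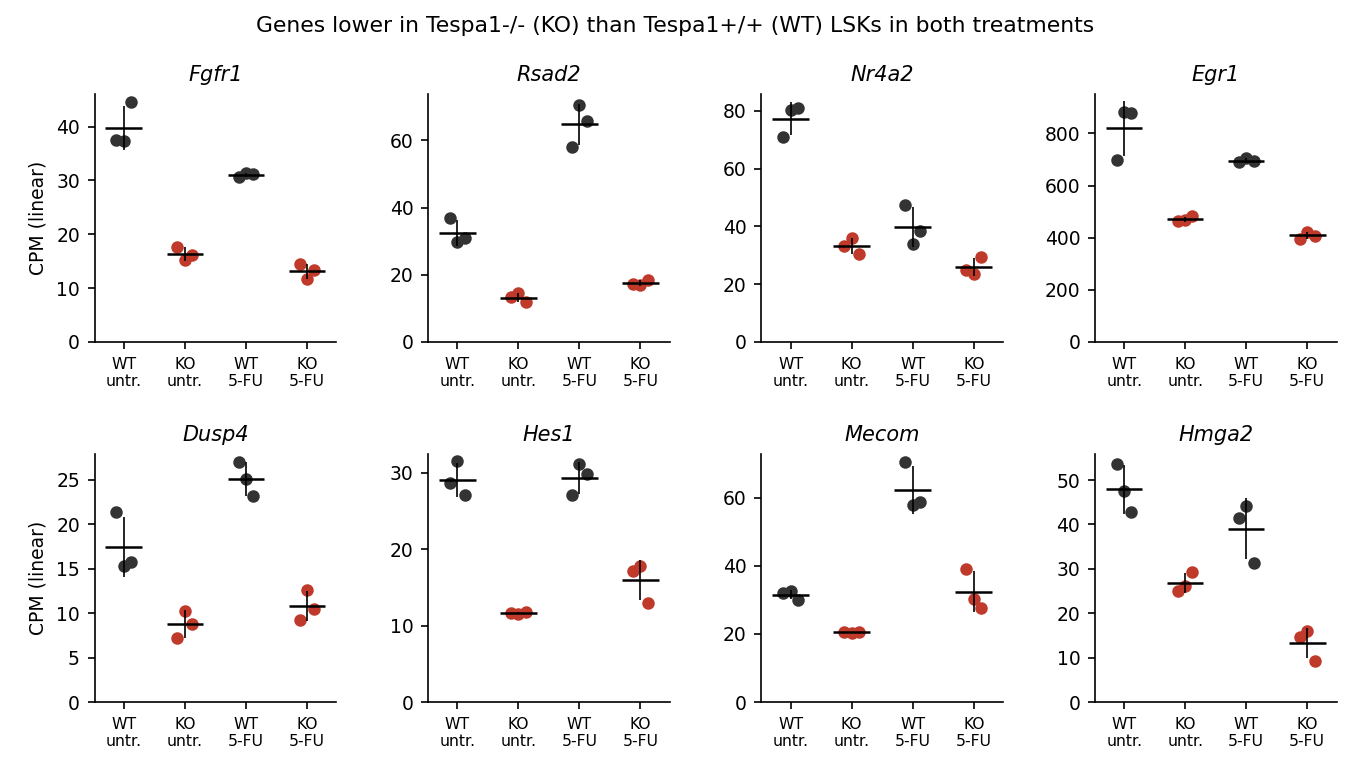
CPM (linear axis) of 8 genes lower in Tespa1-/- LSKs, by group: WT is Tespa1+/+, KO is Tespa1-/-, untr. is untreated. Points are the 3 libraries of a group, horizontal lines the mean and vertical lines 1 SD. In all 8 panels the KO points lie below the WT points of the same treatment.

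Of 50 HSC identity genes, 34 were lower in both treatments by sign, against 5276 of all 18696. With an adjusted p below 0.05, 15 were lower (5.84% of all genes) and 3 higher (4.9%), and 6 were shared and lower (1.42%), among them Gimap6, Egr1, Mecom, Myct1 and Hlf, with a list median of -0.21 in untreated and -0.45 in treated LSKs. Gimap6 (chromosome 6, 48701582 to 48708225), a GTPase of immune cells, was at 257, 247 and 255 CPM in untreated Tespa1+/+ and 152, 156 and 143 CPM in untreated Tespa1-/- libraries, and at 181, 190 and 190 against 107, 113 and 102 CPM after 5-FU. Its genotype effect was -0.75 in untreated and -0.80 in treated LSKs (additive -0.78 ± 0.04, adjusted p = 2.2e-07).

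Mecom (chromosome 3, 29951296 to 30548008), which encodes EVI1, a factor needed to maintain stem cells, was at 31.9, 32.6 and 30.1 against 20.5, 20.2 and 20.6 CPM in untreated and at 70.4, 57.8 and 58.7 against 39.1, 30.1 and 27.7 CPM in treated libraries (-0.79 ± 0.10, adjusted p = 0.000181). Gm38197, on the same strand, overlaps it. Myct1, an endothelial and stem cell membrane protein, gave -0.85 ± 0.11 (adjusted p = 0.000294). Hlf, picked after its values were seen, gave -0.78 ± 0.17 (adjusted p = 0.00905), with -0.41 in untreated and -1.16 in treated LSKs, and Emcn, endomucin, a surface marker of stem cells, also picked afterwards, -0.96 ± 0.20 (adjusted p = 0.00656). Of the stem cell genes, 2 were shared and higher (1.52% of all genes), both also picked afterwards. These were Gfi1b (0.83 ± 0.21, adjusted p = 0.0223) and Zbtb16 (0.61 ± 0.18, adjusted p = 0.0431), transcription factors that also act in committed cells.

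Gfi1b lost its call without treated Tespa1-/- replicate 2, treated Tespa1+/+ replicate 1 or untreated Tespa1-/- replicate 1 (adjusted p up to 0.0596). Zbtb16 lost it in 8 of the 12 fits, those without treated Tespa1-/- replicate 1 or 3, treated Tespa1+/+ replicate 1 or 2, any untreated Tespa1-/- replicate or untreated Tespa1+/+ replicate 1 (adjusted p up to 0.0973). Without untreated Tespa1+/+ replicate 3 the log2 fold change of Zbtb16 was 0.47, below the fold change threshold. The summed Kit and Ly6a level was 405 to 457 against 372 to 392 CPM in untreated and 481 to 519 against 339 to 370 CPM in treated libraries. Kit was lower by -0.32 ± 0.05 (adjusted p = 0.00121), more so after 5-FU, and Ly6a gave -0.66 ± 0.28 (adjusted p = 0.159), with untreated groups that overlapped. Their part in the stem cell genes was not tested.

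Of 38 interferon-stimulated genes tested, 2 were shared and lower (1.42% of all genes), Rsad2 and Mx2, and 0 were higher. Of 13 called lower (1.91% of all genes), 11 had an adjusted interaction p below 0.05, and the list median was -0.07 in untreated and -0.90 in treated LSKs. Rsad2 (viperin, an antiviral enzyme; chromosome 12, 26442746 to 26456452) is shown with its promoter as the list's largest shared fall. Its RefSeq promoter (GRCm38.p6, chr12:26456403-26456702, minus strand) holds 1 interferon-stimulated response element (GAAA, any 2 bases, GAAA; both strands searched), read on the opposite strand, that begins 120 bases before the start and is in capitals.
Rsad2: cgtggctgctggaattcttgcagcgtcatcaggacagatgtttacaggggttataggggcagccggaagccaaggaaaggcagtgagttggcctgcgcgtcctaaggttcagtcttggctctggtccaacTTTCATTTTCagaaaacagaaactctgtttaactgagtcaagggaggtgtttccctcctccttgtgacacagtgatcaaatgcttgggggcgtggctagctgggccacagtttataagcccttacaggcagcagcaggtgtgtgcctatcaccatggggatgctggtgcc
The same motif was in 3.26% of all matched promoters and in 4.43% of those of the shared genes that were lower and 5.21% of those that were higher. Rsad2 was at 36.9, 29.7 and 30.9 CPM in untreated Tespa1+/+ and 13.3, 14.5 and 11.8 CPM in untreated Tespa1-/- libraries, and at 58.2, 70.5 and 65.8 against 17.4, 16.9 and 18.5 CPM after 5-FU. The means were 32.5 and 64.8 CPM in untreated and treated Tespa1+/+ LSKs and 13.2 and 17.6 CPM in Tespa1-/-. The genotypes lay apart in both (-1.60 ± 0.12, adjusted p = 2.09e-06). Mx2, a dynamin-like antiviral protein, gave -0.76 ± 0.15 (adjusted p = 0.0051).

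Fgfr1 (chromosome 8, 25513654 to 25575718), a receptor for fibroblast growth factors, had the lowest standard error of the 12 largest shared falls among genes with a mean of at least 1 CPM and no overlap of the genotypes in either treatment. It was at 37.5, 37.3 and 44.5 CPM in untreated Tespa1+/+ and 17.7, 15.2 and 16.1 CPM in untreated Tespa1-/- libraries, and at 30.6, 31.3 and 31.1 against 14.4, 11.7 and 13.3 CPM after 5-FU. The genotype effect was -1.28 and -1.24 in the 2 treatments (additive -1.26 ± 0.08, adjusted p = 9.13e-07). By fold, these 12 were led by Itga3, the laminin-binding integrin chain (-2.13 ± 0.34, adjusted p = 0.00116), 1700029H14Rik (-2.0 ± 0.35), Emp1, an epithelial membrane protein (-1.76 ± 0.31), and Ptprm, a receptor phosphatase (-1.68 ± 0.33). Emp1 was at 92.4, 41.9 and 81.2 against 18.8, 11.6 and 13.6 CPM in untreated but 12.7, 27.7 and 10.3 against 9.65, 5.19 and 7.45 CPM in treated libraries, an untreated level in Tespa1+/+ above that of the other 9 libraries. The other members of this group, beside Rsad2 above, were Zfp987 (-1.62 ± 0.30), Fam71a (-1.61 ± 0.20), Gm47508 (-1.53 ± 0.38), Ighg2b (-1.48 ± 0.19), Il18, a cytokine of the IL-1 family (-1.27 ± 0.22), and Cd5. Gm47508 overlaps Gm47512 and Nt5dc1, and Il18 overlaps Bco2, in each case on the opposite strand. Cd5 had 2 to 52 counts in a library and its call (-1.62 ± 0.47, adjusted p = 0.0391) was lost in 8 of the 12 fits that left out 1 library, those without treated replicate 1 or 3 of Tespa1-/-, treated replicate 2 or 3 of Tespa1+/+, untreated replicate 1 or 3 of Tespa1-/- or untreated replicate 2 or 3 of Tespa1+/+ (adjusted p up to 0.0882).

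Several other large rises rested on low counts. Olr1, a scavenger receptor, had 0 counts in all 6 Tespa1+/+ libraries, 3, 8 and 17 in untreated and 171, 141 and 125 in treated Tespa1-/- libraries, at least 3.27-fold and at least 48.7-fold higher. Abca13, a lipid transporter (4.63 ± 0.57, adjusted p = 0.000174), and Mgl2, a lectin of macrophages and dendritic cells (3.04 ± 0.55, adjusted p = 0.00308), did not exceed 7 counts in any untreated Tespa1+/+ library. Olfml2b (4.86 ± 1.01) and Sh3tc2 (4.62 ± 0.93) did not exceed 8 counts in any Tespa1+/+ library, and their log2 fold changes ran from 4.36 to 6.88 and from 4.20 to 6.23 when 1 library was left out, highest in both cases without untreated Tespa1+/+ replicate 1. Skap1, a T-cell adaptor (3.15 ± 0.93, adjusted p = 0.0434), lost its call in 11 of these fits, all but that without untreated Tespa1+/+ replicate 2 (adjusted p up to 0.101). Over all shared rises, 49 of 284 had 3 counts or fewer throughout untreated Tespa1+/+ and 32 throughout treated Tespa1+/+.

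**Figure D4:**
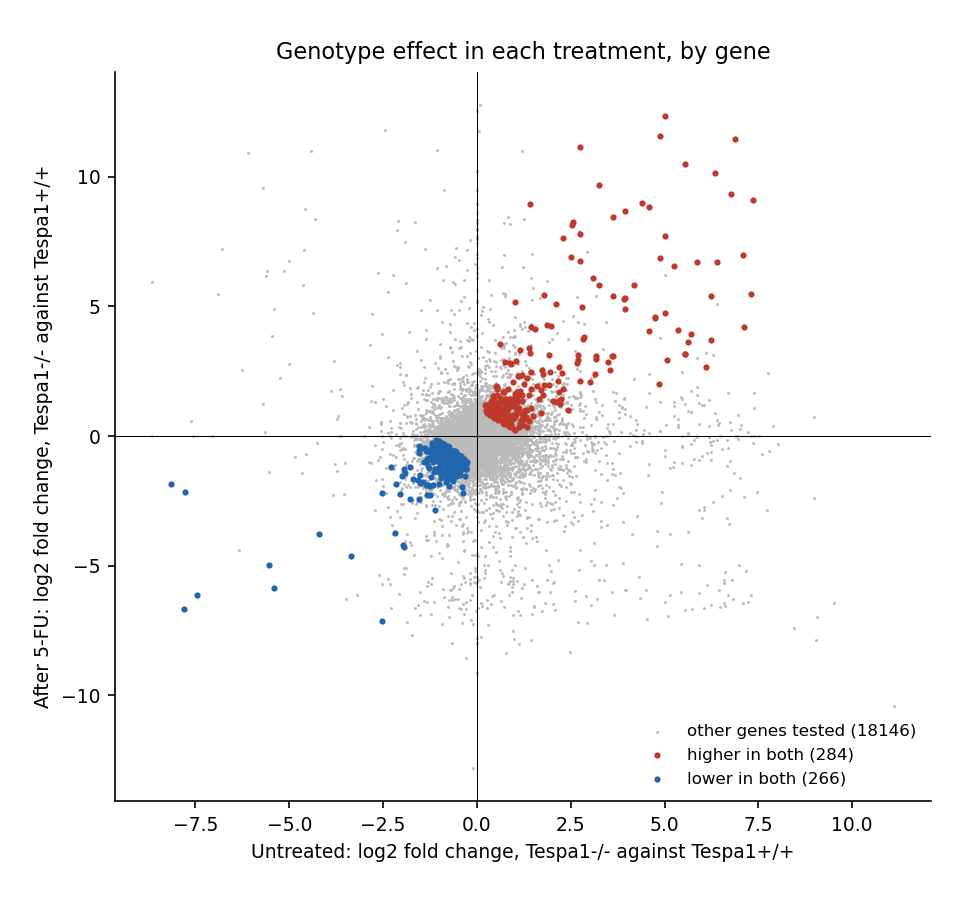
Genotype log2 fold change in untreated (x axis) and 5-FU treated (y axis) LSKs for each of the 18696 genes tested. Red points are the 284 shared genes that were higher, blue the 266 that were lower, grey the others. Red and blue points lie in the quadrants of equal sign because the rule puts them there, and grey points fill all 4 quadrants.

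How far the shared effect stands in each treatment alone was read from the contrasts within treatments. Of the 284 rises, 69 had an adjusted p below 0.05 in both treatments, 139 only after 5-FU, 15 only in untreated LSKs and 61 in neither. Of the 266 falls the numbers were 74, 112, 30 and 50. The effect was larger after 5-FU in 69.4% of the rises and 64.3% of the falls. In 179 of the rises and 164 of the falls the genotypes did not overlap in either treatment, against 3.54% and 4.4% of all genes tested. The signs and the additive test chose these genes, so these counts describe them and test nothing.

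Calls were also compared between 2 separate fits of 6 libraries each, which share no library with each other. Together they hold the same 12 libraries that the rule used. Of 398 genes called in untreated LSKs among 16341 tested in both, 106 (26.6%) were called in the same direction after 5-FU, where 3.49% of all genes were called higher and 3.13% lower. In the opposite direction, 1 of the 149 genes higher in untreated LSKs was called lower after 5-FU and 10 of the 249 lower ones were called higher. In the reverse reading, 7.72% of the genes higher after 5-FU and 12.1% of the genes lower after 5-FU were called in the same direction in untreated LSKs, where 0.912% and 1.52% of all genes were. Across all 18696 genes the genotype effects of the 2 treatments had the same sign in 57.3%, with Pearson's r = 0.01 and Spearman's rho = 0.16. Genes are not independent replicates, and these values carry no p.

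**Figure D5:**
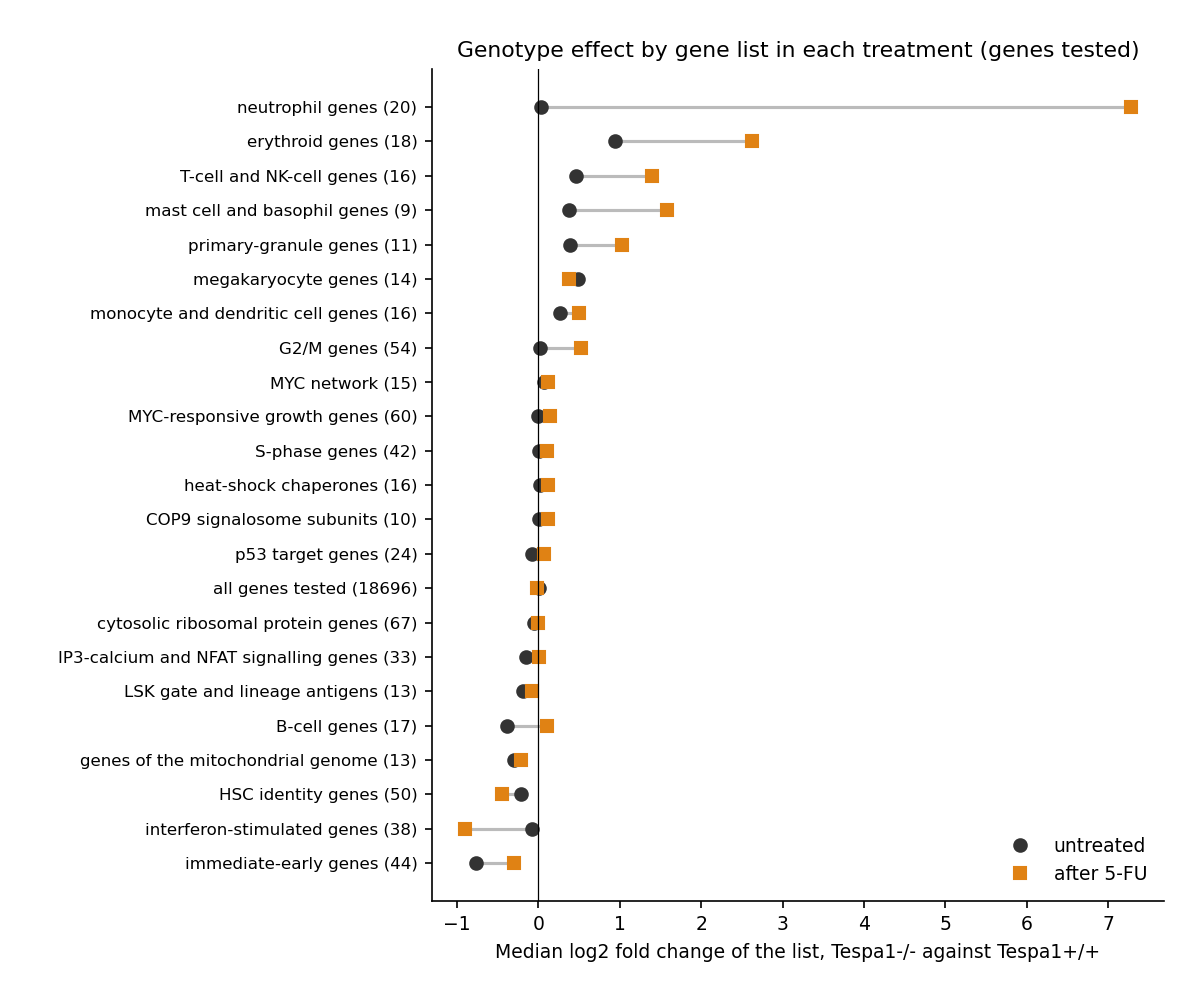
Median log2 fold change of each gene list in untreated (black circles) and 5-FU treated (orange squares) LSKs, from the fitted values, with the number of genes tested in parentheses. Erythroid genes are at 0.95 and 2.63, immediate-early genes at -0.77 and -0.30, and all genes tested at 0.01 and -0.02. The neutrophil value after 5-FU, 7.28, falls to 6.43 with genes at 0 set to the detection limit.

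Several lists held 0 shared genes in edgeR's additive test with all 3 conditions. These were the MYC-responsive growth genes (60 tested; 7 with an adjusted p below 0.05, all higher), the MYC network (15 tested; 1 with such a p, lower), S-phase genes (42; 5 higher and 1 lower), p53 targets (24; 3 lower), heat-shock chaperones (16; 2 higher), the COP9 signalosome (10; 1 higher and 2 lower), cytosolic ribosomal proteins (67; 3 higher and 3 lower) and the IP3-calcium and NFAT list (33; 7 lower). Of 54 G2/M genes, 16 had an adjusted p below 0.05 and all 16 were higher, but the list median was 0.03 in untreated and 0.53 in treated LSKs, and 27 of the 54 had an adjusted interaction p below 0.05. In this list 2 genes were shared and higher (1.52% of all genes), Kif2c (0.66 ± 0.10), a kinesin of the spindle, and Cdc25c (0.75 ± 0.14), the phosphatase that starts mitosis. Of the 13 protein genes of the mitochondrial genome, 11 had an adjusted p below 0.05 and all 11 were lower, at a list median of -0.30 in untreated and -0.21 in treated LSKs, below the fold change threshold. Without a fold change threshold, 4.9% of all genes were higher and 5.84% lower.

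Since the allele's name gives a 129S origin and it was then backcrossed, shared genes were counted along chromosome 10. Within 5 Mb of Tespa1, 3 of 94 genes tested (3.19%) were shared. Within 10 Mb, 7 of 122 genes tested (5.74%) were shared, 2 higher and 5 lower, and within 20 Mb the same number of 183 (3.83%), against 2.94% of all genes. By chromosome, the share was highest on chromosome 6 at 4.92%. Hmga2 (chromosome 10, 120361275 to 120476469), a chromatin protein of fetal stem cells, was at 53.7, 47.5 and 42.7 against 25.1, 26.1 and 29.4 CPM in untreated and at 41.5, 44.3 and 31.4 against 14.7, 15.9 and 9.35 CPM in treated libraries (-1.19 ± 0.16, adjusted p = 0.000342). 1700006J14Rik (1.05 ± 0.22, adjusted p = 0.00749) overlaps Hmga2 on the other strand and went the opposite way. Also in this window were Msrb3 (-0.78 ± 0.16), which Gm15910 overlaps on the opposite strand, Slc16a7, a transporter of lactate and pyruvate (-0.86 ± 0.17), and Nab2. Spryd4 (0.59 ± 0.17, adjusted p = 0.0403) lost its call in 10 of 12 fits that left out 1 library, all but those without treated Tespa1-/- replicate 3 or treated Tespa1+/+ replicate 1 (adjusted p up to 0.107). Whether the flanking strain sequence plays a part was not tested.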

How the data were processed

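Poly-A RNA was sequenced after a stranded library preparation. The submitters' processing notes name CASAVA 1.8, HISAT2, StringTie and edgeR with GRCm38. The authors deposited counts of reads per gene, without normalization, for 53465 genes and 12 libraries. They also deposited FPKM values, which are the same counts over gene length and library total (relative spread at most 1.45e-06 over 8529 genes), so these were not used further. Whether counting used strand is not given in the sources used here. Of the genes, 53274 are in GENCODE M21, 96.4% at the same position. Groups, replicate numbers and the day come from the labels, the dose from the study's methods.

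Counts were filtered with filterByExpr over the 4 groups (18696 genes), scaled with TMM and tested in R 4.3.3 with edgeR 4.0.16: glmQLFit and glmQLFTest, genotype plus treatment over the 12 libraries, with an interaction fit for contrasts within treatments. P-values were adjusted by Benjamini-Hochberg over all genes tested. Standard errors are the log2 fold change over the square root of the F statistic. The biological coefficient of variation was 0.302. Replicates differed by more than sampling noise (median chi-square per degree of freedom 2.08 to 5.87) and 0 pairs were identical. Lower bounds were set against 3 counts in each library, on the same TMM-scaled CPM. Tespa1 was also tested by exact permutation of log2(CPM + 1). The fits were tested on simulated data. Promoters are those of RefSeq, matched by symbol and strand. Motifs were searched on both strands.

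Genes were named by rule: the 12 largest shared rises and the 12 largest shared falls by log2 fold change with a mean of at least 1 CPM and no overlap of the genotypes in either treatment, up to 4 shared genes per list by p, up to 6 within 20 Mb of Tespa1, the genes the study names, and Kit and Ly6a. Other genes were singled out after their values were seen, as stated where they appear. Members and lists were chosen with earlier results of these data known. Lists came from general knowledge of marker genes. Alternatives were DESeq2 1.42.0, RLE size factors, library totals, no filter, at least 10 counts in every library, a replicate block, a 4-group model, each library left out, other fold change thresholds and other rules for sharing. Protein-coding genes alone and a mean of at least 1 CPM were added after the data were seen. Python 3.11.15 was used for the other steps, with SciPy 1.17.1, NumPy 2.4.6, pandas 2.3.3 and, for drawing, matplotlib 3.10.9. The values of 1 gene are not reported here.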

Additional observations from a re-analysis of the deposited data

Results flagged for a closer look

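In 5 of the genes named by rule or chosen after their values were seen, the genotype effect differed between the treatments by the interaction test of edgeR's quasi-likelihood fit, so these are not shared. Values are the log2 fold change after 5-FU minus that in untreated LSKs. Tespa1 differed by -1.05 (adjusted p = 0.00104), from -0.42 in untreated to -1.46 in treated LSKs. Nr4a1 differed by 0.62 (adjusted p = 0.000648), from -1.31 to -0.69, and Nr4a3 by 1.08 (adjusted p = 0.0359), from -1.56 to -0.48. Kit differed by -0.27 (adjusted p = 0.0298), from -0.18 to -0.45. Gm26917 differed by 0.16 (adjusted p = 0.0184), from 0.27 to 0.43.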

How the results depend on the processing

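No tested result changed sign under any alternative, and of the list medians, which carry no test, 1 did. Of 1518 values of named genes under the alternatives, 1426 kept their direction and their side of the adjusted p threshold, and 92 kept the direction but lost the call. The fold change threshold is not part of this count. Some fits that kept the call fell short of it, with lowest log2 fold changes of 0.47 for Zbtb16, 0.48 for Itgb3, 0.53 for Ly6c2 and 0.57 for Pf4. The counts followed the fold change threshold: without one, 917 genes were higher and 1092 lower, and 766 and 910 of these were shared. Above a fold change of 2 there were 211 and 104, with 152 and 75 shared. Among the members of all lists the shared genes were 51 higher and 53 lower without a threshold and 14 and 1 above a fold change of 2. Calls in each of the separate fits, which hold fewer libraries, were shared for 44 genes higher and 62 lower. The carry-over share was 38.5% without a fold change threshold. The neutrophil median was 3.43 with DESeq2 and 0.15 with at least 10 counts in every library, where the erythroid median was 1.49 and the T-cell and NK-cell median -0.010, the change of sign, on fewer genes tested. The last was 1.76 without a filter on low counts. With 1 library left out, 278 to 408 genes were higher, 277 to 348 lower, 240 to 344 shared and higher, and 222 to 266 shared and lower. Replicate numbers did not pair the samples (correlations of deviations -0.06 to 0.03). With a replicate block 265 genes were shared and higher and 231 lower, 454 of the 550 genes were still shared, and 6 named genes lost their call. Genes with few counts in Tespa1+/+ limit the precision of the largest rises.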

Other observations

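Of the 284 shared genes that were higher, 245 were protein coding, 85 had a fold change above 4 and 44 a mean below 1 CPM. Of the 266 that were lower, 203 were protein coding, 16 had a fold change above 4 and 12 a mean below 1 CPM.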
